A study of Homo sapiens with 9 samples.

Results

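The genes described here are 42 genes that copy the genome or divide the cell, 22 with roles in DNA replication and 20 with roles in mitosis. They were named by function, with no measured value in the rule, and every probe set annotated to one of them was taken. That gave 89 of the 54675 probe sets on the array, of which 82 passed the filter on low signal, and all 42 genes were among the 13518 genes tested.

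RNA was measured in HSF-6, an established human embryonic stem cell line, on 9 Affymetrix human U133 Plus type arrays in 3 groups of 3. Untreated HSF-6(8) cells carried the agent label control. HSF-6(8) B+DZNep and HSF-6(S9) B+DZNep cells were grown with butyrate, an inhibitor of histone deacetylases, and DZNep (3-deazaneplanocin A), an inhibitor of S-adenosylhomocysteine hydrolase that lowers histone methylation by EZH2. For all groups the labels give 11 passages and 6 days of growth, and they do not say what sets HSF-6(S9) apart from HSF-6(8). With no untreated HSF-6(S9) group among these samples, subline and treatment cannot be told apart where HSF-6(S9) B+DZNep cells are set against untreated HSF-6(8) cells. The labels mark the arrays of a group only with prime marks, called the first, the second and the third here, and do not say whether they are separate cultures. What the p-values weigh is hence the scatter among these samples, possibly technical in origin, and precision is limited by how few arrays there are.

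Replication begins when CDC6 and CDT1 load the MCM2-7 helicase onto origins in G1. Cyclin E kinase, CDC45 and GINS then switch the helicase on, and polymerases tethered by the PCNA clamp copy the DNA with nucleotides made by enzymes such as ribonucleotide reductase. Mitosis is driven by CDK1 with cyclins A and B, by the Polo and Aurora kinases, and by the spindle checkpoint, which holds back CDC20 until chromosomes are attached. Replication genes are known targets of E2F factors and mitosis genes of the MuvB and FOXM1 complexes, and pluripotent stem cells, with their short G1, express both sets at high levels.

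Promoter stretches are shown because these classes are known for different promoter elements. They are printed for 3 replication genes with an E2F word, for 4 mitosis genes with a cell cycle homology region (CHR) word, and for KIF20A, a mitosis gene with neither. Sequence and positions are from RefSeq, build GRCh38.p14, read 5′ to 3′ on the strand of the gene. Capitals mark the E2F word, the CHR word or the CCAAT word in either orientation (ATTGG when reversed).
POLA1: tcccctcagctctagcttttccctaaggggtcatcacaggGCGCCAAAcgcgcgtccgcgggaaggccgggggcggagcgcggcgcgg
PCNA: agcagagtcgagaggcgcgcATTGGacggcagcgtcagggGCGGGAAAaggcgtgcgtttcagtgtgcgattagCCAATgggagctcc
MCM6: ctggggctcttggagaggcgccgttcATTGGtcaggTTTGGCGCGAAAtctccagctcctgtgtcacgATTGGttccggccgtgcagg
CDK1: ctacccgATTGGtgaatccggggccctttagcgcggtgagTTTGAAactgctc
BUB1B: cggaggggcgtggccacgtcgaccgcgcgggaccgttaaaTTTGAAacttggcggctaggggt
CCNB2: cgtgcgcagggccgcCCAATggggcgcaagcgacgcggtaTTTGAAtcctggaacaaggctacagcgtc
PLK1: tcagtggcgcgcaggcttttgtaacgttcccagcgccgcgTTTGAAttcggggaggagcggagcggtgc
KIF20A: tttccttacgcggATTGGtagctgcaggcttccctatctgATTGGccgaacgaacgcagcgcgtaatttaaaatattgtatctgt

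The POLA1 stretch is chrX:24693741-24693828 on the plus strand, and its E2F word begins 137 bases before the annotated start. PCNA (chr20:5126634-5126721, minus strand) has its word 59 bases before the start. In MCM6 (chr2:135876482-135876569, minus strand) a pair of E2F words in opposite orientation overlap to make a single longer run. The CHR word of CDK1 (chr10:60778425-60778477, plus strand) begins 13 bases before the downstream one of 2 annotated starts, and so inside the gene as counted from the upstream one. That of BUB1B (chr15:40161006-40161068, plus strand) begins 23 bases before the start. In both CCNB2 (chr15:59105077-59105145, plus strand) and PLK1 (chr16:23678820-23678888, plus strand) the distance is 29 bases. The first letters of the CCAAT and CHR words lie 25 bases apart in CCNB2 and 33 in CDK1. KIF20A (chr5:138179005-138179089, plus strand) has 2 reversed CCAAT words 27 bases apart.

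Promoter windows of 300 bases, from 250 before to 50 after the start, were found for 36 of the 42 members, and not for MCM4, MCM5, CCNE2, AURKA, TTK and BIRC5. The E2F words searched on both strands were TTTGGCGC, TTTCCCGC, TTTGCCGC and TTTCGCGC, whose matches can overlap each other as in MCM6. At least 1 of them was held by 13 of 19 replication members, by 1 of 17 mitosis members (CDK1), and by 3.99% of the 27305 genes with a window. The CHR word TTTGAA was held by 1 of 19 replication members (RRM1), by 10 of 17 mitosis members and by 18.2% of all these genes. The CCAAT word was held by 11 of 19, 14 of 17 and 39.7%. Among the 36 members with a window, E2F words therefore lay mostly in replication promoters and CHR words mostly in mitosis promoters. A match is a description of letters and neither a site nor a cause, and no match says only that the letters are not in the window.

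The members were well measured. All 42 had signals above the array's own median on all 9 arrays, and their median standard deviation within a group, on the log2(signal + 16) scale, was 0.13 in the control group, 0.17 in HSF-6(8) B+DZNep and 0.20 in HSF-6(S9) B+DZNep. The same medians over all genes tested were 0.23, 0.24 and 0.29. Of 12 pluripotency genes, 10 had a probe set of their own and all 10 were above the median on all 9 arrays, including SOX2, NANOG and LIN28A. POU5F1 and TDGF1 were not covered by such a probe set. The third arrays had the 3 highest 18S ribosomal RNA signals (963, 850 and 1517, against 385 to 542 elsewhere). Some markers of other cells differed between treated and control arrays. Summed over the 11 endoderm markers with a probe set of their own, the signal was 895 to 1310 on the controls. It was 2190, 2880 and 14704 on the HSF-6(8) B+DZNep arrays and 2283 to 2899 on the HSF-6(S9) B+DZNep arrays. The 10 that passed the filter lay above 0 in the first and in the third comparison (medians of 1.80 and 1.25). In each, 9 of them were higher without overlap (10.3% and 11.3% of all genes), and none was called. FOXA2 and APOA1 were below the array's own median on all control arrays and passed the filter only through treated arrays. GATA6, GATA4, SOX17, TTR and AFP were above it on some control arrays only. They too needed treated arrays to reach the 3 arrays asked. Only APOA2, CXCR4 and EOMES were above it on all 9 arrays. For markers that needed treated arrays to pass, a value above 0 was built in or favoured by the filter. Of the 7 neuroectoderm markers that passed, PAX3 was called higher in both comparisons (2.85 ± 0.51 and 3.34 ± 0.51, limma adjusted p = 0.0405 and 0.0171). PAX3 too was below the median on all control arrays and passed only through treated arrays. PAX6, and CGA and HAND1 of the trophoblast markers, also needed treated arrays to pass. Of the 7 trophoblast markers GATA3 was called higher in both (2.17 ± 0.21 and 2.19 ± 0.21, limma adjusted p = 0.00130 and 0.00123). Values below 0 were found for 1 and 0 of the neuroectoderm markers and for 1 and 2 of the trophoblast markers in these comparisons. The sum of the 13 stromal markers was 65808 on the third HSF-6(8) B+DZNep array, against 30526 to 46193 on the other 8. None of the markers was at 0, and their part in the members' values against control was not tested.

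The first comparison asked what butyrate and DZNep did in HSF-6(8) cells. No member was called higher or lower, where called means a limma adjusted p under 0.05 over all genes and at least a 2-fold difference. In the same comparison 0.843% of all genes were called. The median log2 fold change was -0.10 for the replication members and -0.06 for the mitosis members, against 0.00 for all genes tested. Values below 0 were found for 26 of 42 members (49.6% of all genes). That split depended on the scaling: with each array centred on its median, 35 of 42 were below 0. It also depended on a single array, since 35 of 42 were below 0 without the third HSF-6(8) B+DZNep array and 21 of 42 without the second. An unadjusted p under 0.05 was reached by 2 members (9.85% of all genes). RFC2 was higher, as 6.78% of all genes were at that p, and KIF20A lower, as 3.07% were. In RNA from whole cultures, fewer cycling cells and less RNA per cell cannot be told apart.

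Missing the threshold does not show that the members were alike, so the intervals matter more. The 95% interval of the log2 fold change lay wholly within 2-fold in either direction for 38 of 42 members, against 73.5% of all genes. The 4 members whose interval reached further were CDT1, RFC2, POLA1 and CCNE2. It lay within 1.5-fold for 23 of 42, against 27.7% of all genes. For most members these arrays thus bounded the difference to less than 2-fold.

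The second comparison set HSF-6(S9) B+DZNep against HSF-6(8) B+DZNep cells, which differ in subline and share the treatment. Again no member was called, where 0.00740% of all genes were, and limma gave no member an unadjusted p under 0.05 (2.57% of all genes, 1.99% lower and 0.584% higher). The lowest adjusted p among the members was 0.989. Values below 0 were found for 23 of 42 members (51.1% of all genes). The medians were -0.01 for replication and -0.06 for mitosis, and both were positive with arrays centred on their medians (0.08 and 0.02). The intervals of 40 of 42 members lay within 2-fold (77.7% of all genes), the exceptions being CDT1 and CCNE2, and those of 24 within 1.5-fold (30.4%).

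The third comparison set HSF-6(S9) B+DZNep against untreated HSF-6(8) cells. It shares its control arrays with the first and its treated arrays with the second, so the 3 sets of values are not independent. No member was called, against 1.18% of all genes (0.895% higher and 0.289% lower). An unadjusted p under 0.05 was reached by 4 of 42 members (14.1% of all genes): RFC2, higher (8.03% of all genes), and POLA1, AURKB and KIF20A, lower (6.10%). The median was -0.12 for replication, -0.18 for mitosis and 0.00 for all genes. Of the 42 members 30 were below 0, against 49.4% of all genes, and the count was 30 under quantile normalization and under centring too. It depended on single arrays, being 26 without the first or without the third HSF-6(S9) array and 33 without the second. The intervals of 38 of 42 lay within 2-fold (68.8%), and those of CDT1, POLA1, CCNE2 and CDK1 reached further. They lay within 1.5-fold for 19 of 42 (23.1%).

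**Figure D1:**
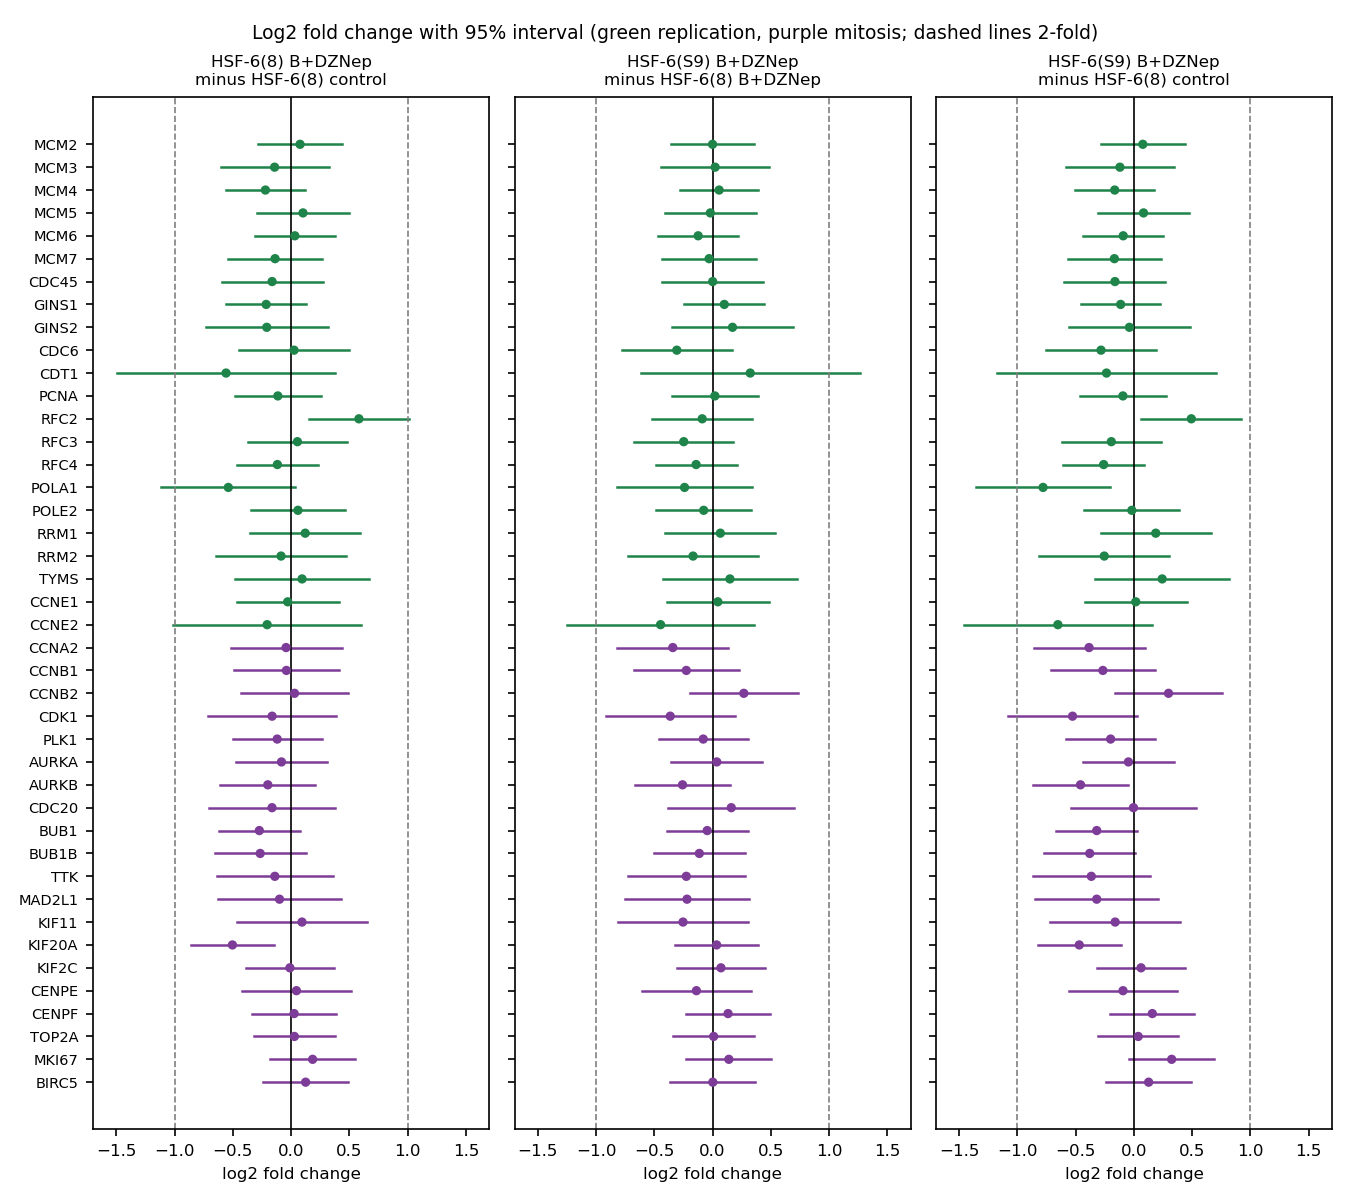
Log2 fold change of each member (points) with its 95% interval (lines) in the 3 comparisons, replication members in green and mitosis members in purple, dashed lines at 2-fold. Most intervals span 0 and stay inside the dashed lines; RFC2 lies above 0 and KIF20A below it in the left and right panels.

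Groups without overlap were counted as a description. Every HSF-6(8) B+DZNep array lay below every control array for 8 members (7.06% of all genes) and above for 2 (10.3%). Between the treated sublines HSF-6(S9) was lower without overlap for 3 members (3.65%) and higher for 0 (2.74%). Against untreated HSF-6(8), HSF-6(S9) B+DZNep was lower for 10 members (8.88%) and higher for 2 (11.3%). The members concerned are described by role below, with fold changes on the log2(signal + 16) scale as value ± SE and signals in array order.

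The MCM2-7 helicase unwinds DNA at the fork, and its 6 subunits stayed close together on the probe sets that stand for them. Their log2 fold changes ran from -0.22 to 0.10 in the first comparison, -0.12 to 0.06 in the second and -0.17 to 0.08 in the third. MCM4 had signals of 4910, 5059 and 5225 in control cells, 4603, 4560 and 3896 in HSF-6(8) B+DZNep and 4753, 4589 and 4216 in HSF-6(S9) B+DZNep. All treated arrays were below all controls, with log2 fold changes of -0.22 ± 0.15 and -0.17 ± 0.15. Other kept probe sets of MCM4 lay lower in the third comparison, at -0.30 (212141_at), -0.80 (212142_at) and -0.54 (222037_at). The mean of its probe sets gave -0.45 there. MCM3 read 8384, 7881 and 7808, then 7778, 7174 and 6870, then 7473, 9681 and 5549. The first treated group was below the controls, whereas the second spanned them, its second array being the highest of all 9 and the third the lowest. MCM5 read 4528, 4632 and 4589, then 4873, 5082 and 4799, then 4236, 6104 and 4418. All HSF-6(8) B+DZNep arrays exceeded all controls on this MCM5 probe set, by 0.10 ± 0.17, and HSF-6(S9) overlapped both groups. Its other probe set (201755_at) lay below 0, at -0.26 in the first comparison and -0.34 in the third, and the mean of both gave -0.08 and -0.13. MCM2, MCM6 and MCM7 overlapped in every comparison.

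CDC45 and the GINS complex join MCM2-7 to form the active helicase. The 3 members had values below 0 in the first comparison (-0.16 for CDC45, -0.21 for GINS1 and -0.21 for GINS2), under quantile normalization and centring as well. The other subunits of the complex, which are not members, lay above 0 with wide errors (0.15 ± 0.32 for GINS3 and 0.28 ± 0.62 for GINS4). GINS1 signals were 7325, 7164 and 7014 in control cells, 6015, 6169 and 6337 in HSF-6(8) B+DZNep, and 6326, 7590 and 6042 in HSF-6(S9) B+DZNep. The HSF-6(8) groups did not overlap (-0.21 ± 0.15), and the second HSF-6(S9) array was above every control. GINS2 read 2724, 2453 and 2801, then 2042, 1782 and 3313, then 2285, 2703 and 2794. Its treated HSF-6(8) arrays lay on both sides of the controls, the third being the highest of all 9.

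CDC6 and CDT1 license origins, and both were unevenly measured across arrays. CDC6 gave 1260, 1172 and 1490 in control cells, 1092, 1180 and 1796 in HSF-6(8) B+DZNep, and 1133, 1012 and 1057 in HSF-6(S9) B+DZNep. HSF-6(S9) arrays were all below the controls (-0.28 ± 0.21), while the third HSF-6(8) B+DZNep array was the highest of all. CDT1 gave 2099, 1794 and 1101, then 1152, 1158 and 959, then 1140, 2796 and 790.3. The second HSF-6(S9) array was the highest of all 9 and the third the lowest, and no groups were apart. CDT1 had the widest interval of the members, with -0.56 ± 0.42 in the first comparison. Its value in the second comparison, 0.32 ± 0.42, was -0.28 with the third HSF-6(8) B+DZNep and second HSF-6(S9) arrays left out. A second CDT1 probe set (228868_x_at) read 515 on the second HSF-6(S9) array, the lowest of its 9 values, where the first (209832_s_at) had its highest. The second probe set gave -0.20, -0.63 and -0.83 (SE 0.32) in the 3 comparisons, and the first -0.56, 0.32 and -0.24.

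PCNA is the sliding clamp and the RFC proteins load it. RFC2 was the only member whose value lay above 0 with an interval excluding 0. RFC2 signals were 1139, 1186 and 862 in control cells, 1591, 1330 and 1872 in HSF-6(8) B+DZNep, and 1592, 1409 and 1466 in HSF-6(S9) B+DZNep. Every treated array exceeded every control array. The log2 fold changes were 0.58 ± 0.19 (limma adjusted p = 0.288) and 0.49 ± 0.19 (adjusted p = 0.283), and the treated sublines differed by -0.09 ± 0.19. Over the alternatives its adjusted p ran from 0.192 to 0.548 in the first comparison. Its other probe set (1053_at) gave 0.60 and 0.56. RFC4 read 6690, 6972 and 5522, then 5807, 5739 and 6035, then 5450, 5031 and 5462. HSF-6(S9) arrays were the 3 lowest for RFC4, by -0.14 ± 0.15 from HSF-6(8) B+DZNep and -0.26 ± 0.15 from control. PCNA (-0.11, 0.02 and -0.09 in the 3 comparisons) and RFC3 (0.05, -0.25 and -0.19) overlapped throughout.

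POLA1, the catalytic subunit of the polymerase that starts each new strand, had the lowest value of all members in the third comparison. Its signals were 2210, 2257 and 2726 in control cells, 1849, 1258 and 1885 in HSF-6(8) B+DZNep, and 1917, 1352 and 1019 in HSF-6(S9) B+DZNep. All 6 treated arrays were below all 3 controls, and the treated groups overlapped. The log2 fold change was -0.54 ± 0.26 in HSF-6(8) B+DZNep (limma adjusted p = 0.560) and -0.78 ± 0.26 in HSF-6(S9) B+DZNep (adjusted p = 0.20, 0.10 to 0.448 over the alternatives). A single probe set covered the gene. POLE2, the small subunit of polymerase epsilon, overlapped throughout (0.06, -0.08 and -0.02).

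**Figure D2:**
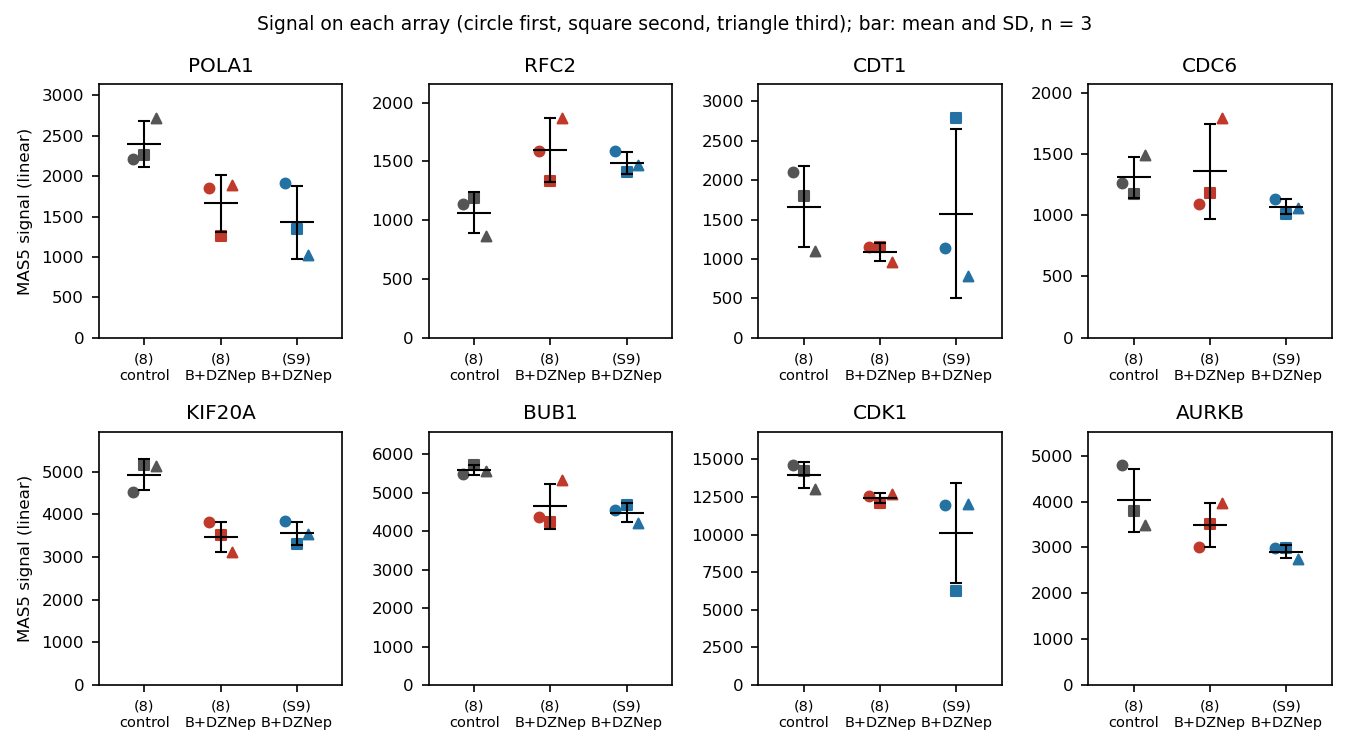
MAS5 signal on a linear axis from 0 for 8 members, by group, with circles, squares and triangles for the first, the second and the third array and bars for mean and SD (n = 3). The treated arrays of POLA1 and KIF20A all lie below the controls and those of RFC2 above them, while CDT1 and CDK1 show the second HSF-6(S9) array far from its group.

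The nucleotide enzymes had no groups apart. RRM1, the large subunit of ribonucleotide reductase, read 5457, 6271 and 7291, then 6151, 6063 and 8600, then 6804, 6274 and 8635. The third array was the highest of every group, and the value was 0.12 ± 0.21 in the first comparison. TYMS, which makes thymidylate, read 9275, 8124 and 8131, then 8341, 8842 and 10090, then 7480, 8794 and 15424. Its value in the third comparison was 0.24 ± 0.26. The third HSF-6(S9) array was far above the rest, and the other arrays of that group lay within or below the control range. RRM2 gave -0.09, -0.17 and -0.25.

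Cyclin E starts S phase with CDK2. CCNE2 was the one member dropped by a filter at the 75th percentile of signal. It read 316, 369 and 479 in control cells, 232, 269 and 566 in HSF-6(8) B+DZNep, and 255, 156 and 333 in HSF-6(S9) B+DZNep. Both treated groups overlapped the control, and the third HSF-6(8) B+DZNep array was the highest of all. The third comparison gave -0.65 ± 0.36, a fold change that the added 16 understates for so low a signal. CCNE1 was at -0.03, 0.05 and 0.02.

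Of the mitotic drivers, CDK1, the kinase that triggers entry into mitosis, was the one without overlap in all 3 comparisons. Its signals were 14640, 14251 and 13011 in control cells, 12563, 12086 and 12707 in HSF-6(8) B+DZNep, and 11962, 6280 and 12050 in HSF-6(S9) B+DZNep. The order of the groups was the same on all arrays, but the gaps were small apart from the far lower second HSF-6(S9) array. The values were -0.16 ± 0.25, -0.36 ± 0.25 and -0.53 ± 0.25, and with the mean of its probe sets the last became -0.16. Probe sets 203214_x_at and 210559_s_at of CDK1 read 4202 and 4352 on that array, the highest of their group.

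Cyclins A and B activate CDK1. CCNB1 read 7755, 7607 and 8816, then 6503, 7281 and 10079, then 7362, 5812 and 6972. The HSF-6(S9) arrays were all below the controls (-0.27 ± 0.20), and the third HSF-6(8) B+DZNep array was the highest of all. CCNA2 read 3735, 4277 and 5331, then 4058, 3899 and 4910, then 4007, 2668 and 3562. Its groups overlapped, with -0.34 ± 0.21 between the treated sublines. CCNB2 read 6500, 6235 and 5835, then 6681, 6184 and 6075, then 5953, 10237 and 7200. The second HSF-6(S9) array was the highest for CCNB2, where it was the lowest for CCNB1, CCNA2 and CDK1.

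AURKB is the kinase of the chromosomal passenger complex, which corrects spindle attachments. It read 4802, 3805 and 3489 in control cells, 3003, 3516 and 3969 in HSF-6(8) B+DZNep, and 2991, 2977 and 2745 in HSF-6(S9) B+DZNep. HSF-6(S9) arrays were the 3 lowest, and the HSF-6(8) groups overlapped. Its value was -0.46 ± 0.18 in the third comparison (limma adjusted p = 0.290), and -0.13 with the mean of its probe sets. PLK1 (-0.12, -0.08 and -0.20) and AURKA (-0.08, 0.04 and -0.05) overlapped throughout.

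The spindle checkpoint members with CDC20, the activator of the anaphase-promoting complex that the checkpoint blocks, were below 0 in 5 of 5 in the first comparison and in the third, under quantile normalization and centring as well. Their medians were -0.16 and -0.32, with none called, while BUB3, a checkpoint gene that is no member, was at 0.06 ± 0.15 in both. The count of 5 depended on single arrays. CDC20 was at -0.004 ± 0.24 in the third comparison, and at 0.17 without the first HSF-6(S9) array. Without the third control array TTK (0.05) and MAD2L1 (0.06) were above 0 in the first comparison. BUB1, a kinetochore kinase, read 5480, 5724 and 5570 in control cells, 4368, 4246 and 5323 in HSF-6(8) B+DZNep, and 4542, 4691 and 4210 in HSF-6(S9) B+DZNep. All treated arrays were below all controls, the third HSF-6(8) B+DZNep array only just. The values were -0.27 ± 0.16 and -0.32 ± 0.16. BUB1B, which encodes the checkpoint protein BUBR1, read 7255, 7877 and 7406, then 6421, 6847 and 5528, then 6761, 5768 and 4918. Again no treated array reached the controls (-0.27 ± 0.17 and -0.38 ± 0.17).

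CDC20 itself read 6673, 6388 and 7409, then 5311, 5724 and 7370, then 5355, 9724 and 6014. Its groups overlapped because of the third HSF-6(8) B+DZNep array and the second HSF-6(S9) array, each the highest of its group. TTK, the kinase that starts the checkpoint signal, was at -0.14, -0.23 and -0.37, and MAD2L1, part of the inhibitor of CDC20, at -0.10, -0.22 and -0.32. A dim probe set of BUB1 (215509_s_at) gave the lowest value of any member probe set, -1.05 ± 0.26 in the third comparison (limma adjusted p = 0.160 over all kept probe sets). That probe set read 393, 376 and 323, then 333, 216 and 344, then 219, 117 and 179.9.

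KIF20A, the kinesin that brings the passenger complex to the central spindle for cytokinesis, had the lowest unadjusted p of the members in the first comparison. Its signals were 4515, 5162 and 5124 in control cells, 3811, 3518 and 3108 in HSF-6(8) B+DZNep, and 3838, 3305 and 3534 in HSF-6(S9) B+DZNep. All 6 treated arrays were below all 3 controls, and the treated groups lay together. The fold change was 0.705 in HSF-6(8) B+DZNep and 0.722 in HSF-6(S9) B+DZNep. On the log2 scale these are -0.50 ± 0.16 (limma adjusted p = 0.258, 0.148 to 0.602 over the alternatives) and -0.47 ± 0.16 (adjusted p = 0.210, 0.129 to 0.463). The sublines differed by 0.04 ± 0.16.

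The other motor and kinetochore genes overlapped in every comparison. KIF11, which pushes the spindle poles apart, was at 0.09, -0.25 and -0.16. KIF2C, a microtubule depolymerase, was at -0.01, 0.07 and 0.06, CENPE at 0.04, -0.14 and -0.09, and CENPF at 0.02, 0.13 and 0.16. TOP2A, which untangles chromosomes, was at 0.03, 0.01 and 0.04. BIRC5, the passenger protein survivin, read 3714, 4119 and 3310, then 4156, 3966 and 3980, then 3770, 4637 and 3768 (0.12 ± 0.16 in the first comparison, with overlap, and -0.06 with the mean of its probe sets).

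MKI67, the proliferation antigen that coats mitotic chromosomes, read 837, 786 and 709 in control cells, 995, 879.6 and 787 in HSF-6(8) B+DZNep, and 1014, 883 and 1034 in HSF-6(S9) B+DZNep. On this probe set (212022_s_at) every HSF-6(S9) array exceeded every control (0.32 ± 0.16, limma adjusted p = 0.419), and the HSF-6(8) groups overlapped by a narrow margin (0.18 ± 0.16). The other 3 probe sets of MKI67 gave -0.07, -0.01 and -0.18 in the third comparison, and the mean of all its probe sets 0.02.

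**Figure D3:**
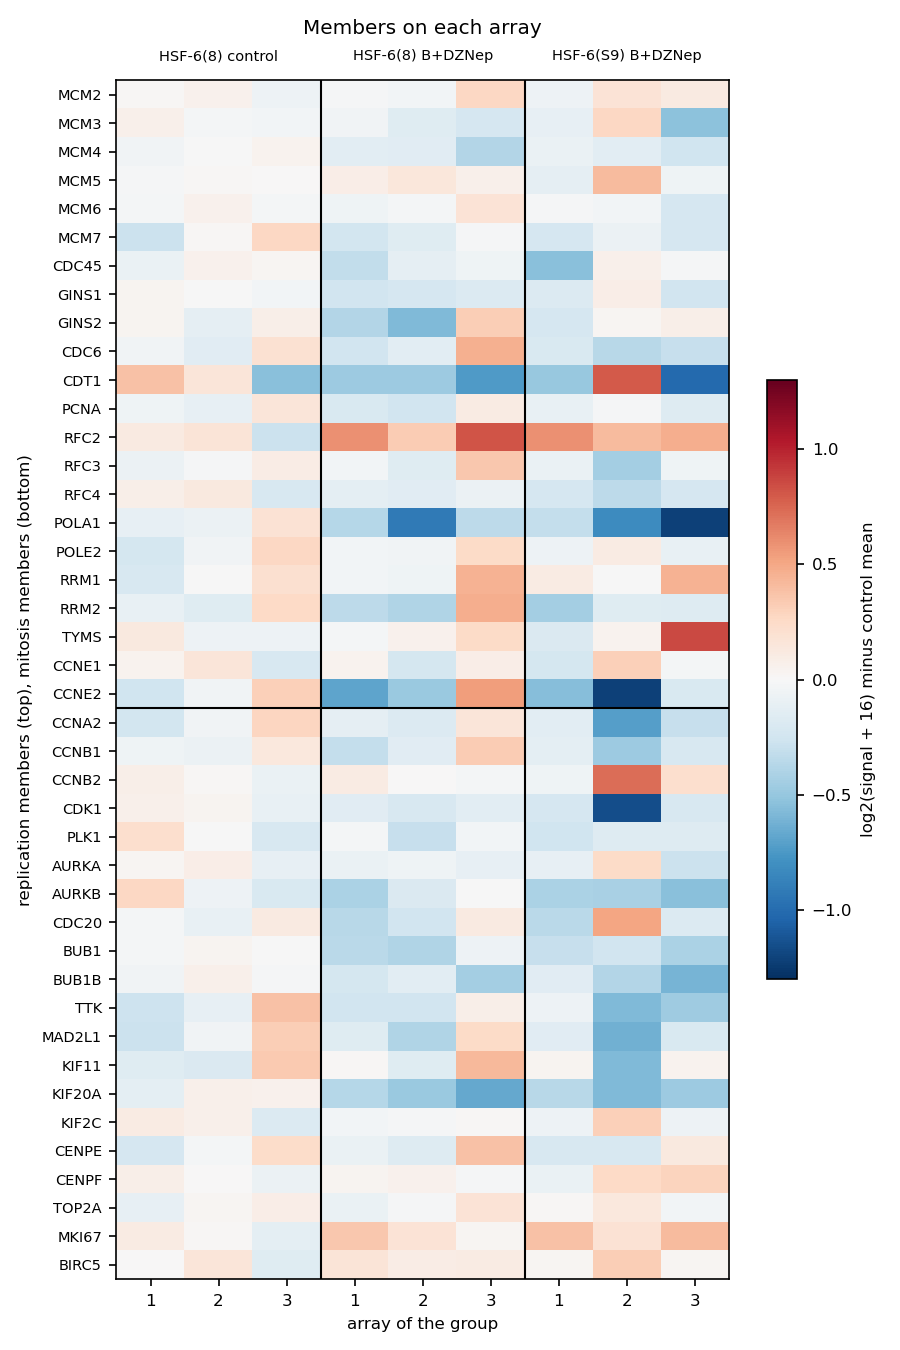
Each member on each array as log2(signal + 16) minus the mean of the 3 control arrays, red higher and blue lower, with replication members above the line and mitosis members below it. RFC2 is red and POLA1, KIF20A, BUB1 and BUB1B are blue on the treated arrays, the third HSF-6(8) B+DZNep array is redder than its group, and the second HSF-6(S9) array holds strong reds and blues together.

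The arrays of a group did not sit together for the members. The median replication member, relative to the control mean, was -0.13, -0.15 and 0.14 on the first, the second and the third HSF-6(8) B+DZNep array, and -0.18, 0.01 and -0.17 on the HSF-6(S9) arrays. The median mitosis member was -0.10, -0.16 and 0.02, then -0.13, -0.23 and -0.19. The control arrays lay between -0.04 and 0.04 for replication and between -0.03 and 0.01 for mitosis. Of the 6 treated arrays, the third HSF-6(8) B+DZNep array was thus the one with both medians above 0.

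On the third HSF-6(8) B+DZNep array 18 of 22 replication members had the highest signal of their group, where 36.8% of all genes did, and so did 12 of 20 mitosis members. Relative to the mean of the other arrays of its group, 4 members were more than 1.5-fold higher there: CCNE2 (1.13 on the log2 scale), RRM2 (0.83), GINS2 (0.79) and CDC6 (0.65). They are 9.52% of the members, where 11.2% of all genes were as far above, and all 4 are replication genes. None of the mitosis members passed 1.5-fold. The high endoderm and stromal marker sums of this array, given above, move with these values, and their part in them was not tested.

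On the second HSF-6(S9) array members lay far out in both directions, as did genes in general. Its mitosis members had an interquartile range of 0.82 for the difference from control, where the first and the third array of that subline had 0.17 and 0.36. For all genes tested the ranges were 0.75 on it and 0.44 and 0.60 on the others, and for its replication members the range was 0.31. CDT1 (1.54), CDC20 (0.78), CCNB2 (0.64) and MCM3 (0.59) were more than 1.5-fold above the mean of the other HSF-6(S9) arrays. CDK1 (-0.93), CCNE2 (-0.83) and KIF11 (-0.61) were as far below. These 7 of 42 members are 16.7%, where 26.4% of all genes lay that far out on the same array. At 1.21 that array had the highest ratio of 3′ to 5′ GAPDH signal, a measure of RNA and labelling quality. The other 8 had 0.976 to 1.12. Its ratio for ACTB, 1.33, lay within the 1.18 to 1.67 of the other 8, and the part of RNA quality was not tested. The summed pluripotency signal of that array was also the highest, at 222831 against 132920 to 197275.

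**Figure D4:**
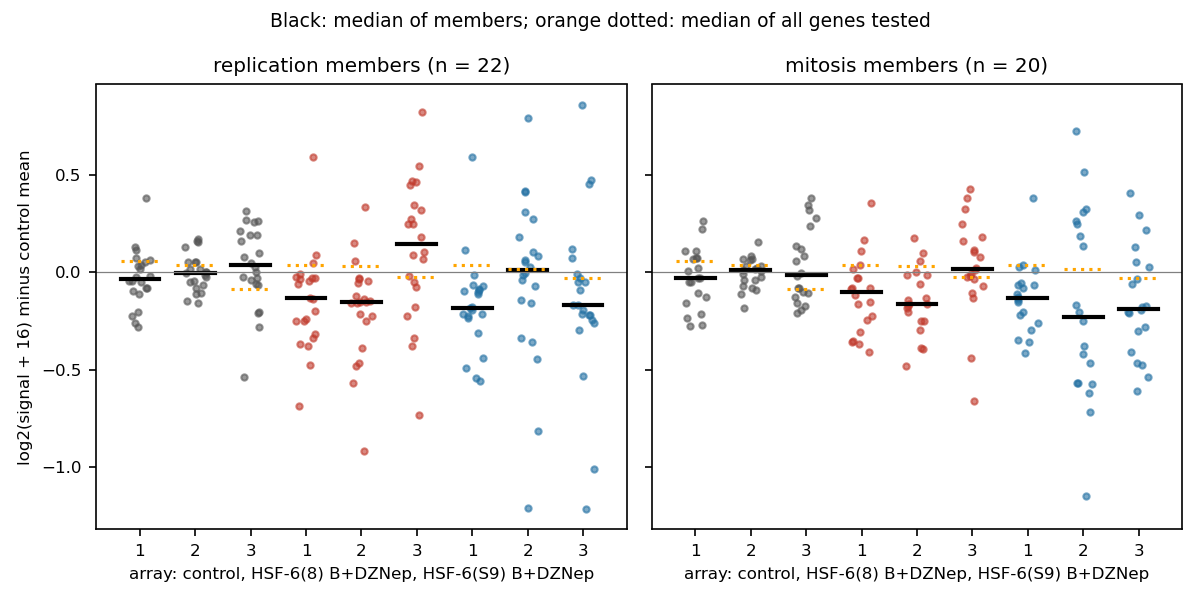
Members (points) on each array as log2(signal + 16) minus the control mean, with the median of members (black) and of all genes tested (dotted orange), for 22 replication members (left) and 20 mitosis members (right). The replication median is 0.14 on the third HSF-6(8) B+DZNep array against -0.13 and -0.15 on the others of that group.

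Of the 42 members 26 had more than 1 kept probe set. Their probe sets had opposite signs in 13 genes in the first comparison, 14 in the second and 8 in the third. The widest gap was 0.47 for AURKB, 0.96 for CDT1 and 0.75 for TOP2A in turn. No member probe set was called by limma in any comparison, where 0.300%, 0.00% and 0.389% of all kept probe sets were. An unadjusted p under 0.05 was reached by 3, 1 and 10 of 82, against 7.52%, 2.43% and 11.3% of all kept probe sets. When kept probe sets were averaged per gene in place of taking the brightest, 7, 8 and 4 of the 42 members had the other sign, none called in either way.

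The clearest case was TOP2A, whose probe sets divided by array and not by group. Probe set 201291_s_at read 1206, 1605 and 7228 in control cells, 1509, 2257 and 6897 in HSF-6(8) B+DZNep, and 1753, 1464 and 5908 in HSF-6(S9) B+DZNep. In all groups the third array was at least 3-fold above the first and second. Probe set 201292_at of the same gene, the one that stands for it, lay between 6395 and 7806 on all 9 arrays. Another, dim probe set of the gene (237469_at) was 2.20-fold, 2.38-fold and 3.38-fold higher on the third arrays, and a dim one of AURKB (239219_at) 6.03-fold, 3.11-fold and 3.62-fold. These 3 of 82 member probe sets were at least 2-fold higher on the third array of all groups, as were 2.70% of all kept probe sets, and none of the 42 that stand for their gene was. The 18S signals move with the same arrays, and their part was not tested.

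**Figure D5:**
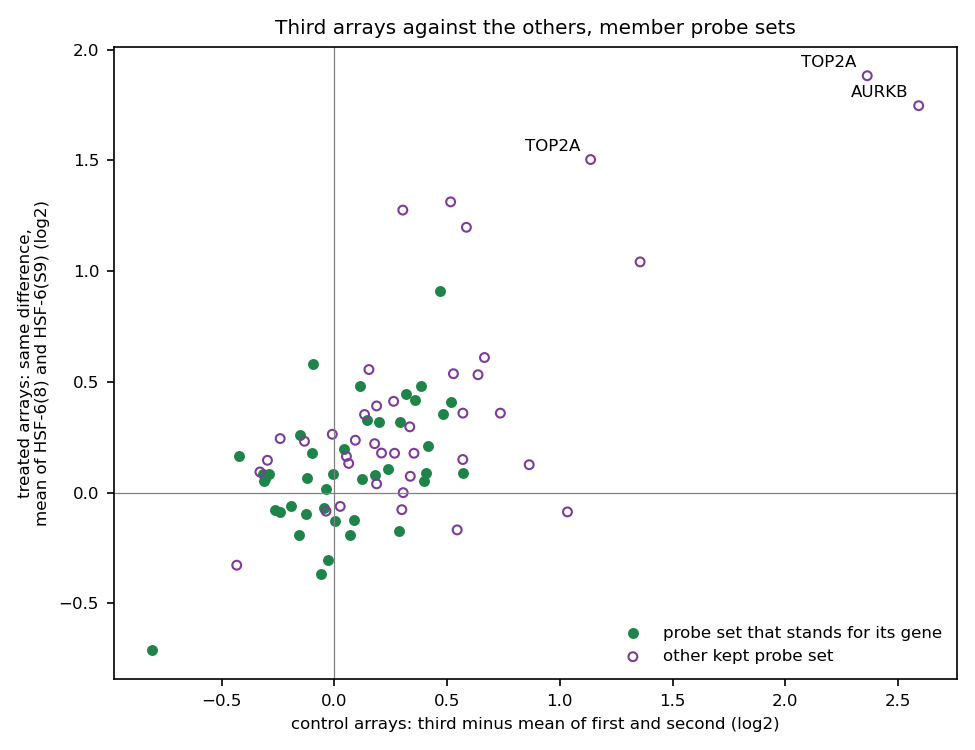
The 82 kept member probe sets by how far the third array lay above the mean of the other arrays of its group, in control cells (x axis, log2) and averaged over the treated groups (y axis, log2). Filled points stand for their gene; the 3 labelled open points are the probe sets of TOP2A and AURKB at least 2-fold higher on the third array of every group.

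Split by promoter words, the members had medians close to one another. The 13 replication members with an E2F word had medians of -0.11, -0.00 and -0.11 in the 3 comparisons, and the 10 mitosis members with a CHR word -0.04, -0.04 and -0.08. For 15 members groups did not overlap in at least 1 comparison. The share of all genes was not counted, so whether 15 is many or few cannot be said. Of these 15, 13 have a promoter window. Of the 6 replication genes among the 13, 4 hold an E2F word (MCM3, GINS1, CDC6 and POLA1) and RFC2 and RFC4 hold none. Of the 7 mitosis genes, 3 hold a CHR word (CDK1, BUB1B and MKI67) and CCNB1, AURKB, BUB1 and KIF20A hold none. Among all members with a window, 13 of 19 replication genes hold an E2F word and 10 of 17 mitosis genes a CHR word. On the third HSF-6(8) B+DZNep array the E2F members had a median of 0.18 over the control mean, and the CHR members of 0.00. With or without a word, all 22 replication members had 0.14 there and all 20 mitosis members 0.02.

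The other genes of the same pathways were counted from lists set by function. Of 40 further replication genes 39 were tested and of 58 further mitosis genes 58, and limma called none in any comparison. An unadjusted p under 0.05 was reached by 0, 0 and 2 of the replication genes and by 1, 0 and 5 of the mitosis genes, all lower. Of all genes 3.07%, 1.99% and 6.10% were lower at that p, and 0.843%, 0.00740% and 1.18% were called. The medians of the replication genes were -0.04, -0.07 and -0.09, and those of the mitosis genes -0.03, -0.07 and -0.11. PRIM2, a subunit of the primase that works with POLA1, was at -0.33 ± 0.19 in the first comparison and -0.55 ± 0.19 in the third (adjusted p = 0.230). TRIP13, which dismantles the spindle checkpoint complex, was at -0.40 ± 0.15 in the first (adjusted p = 0.377) and -0.54 ± 0.15 in the third (adjusted p = 0.132). All treated arrays were below all controls for both genes, which had the lowest values of their lists in the first comparison. Of all genes 7.06% were lower without overlap in the first comparison and 8.88% in the third.

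No call was made by limma for the 21 tested regulators of these genes, among them E2F factors, the RB family, MuvB subunits, FOXM1, MYBL2 and MYC. At an unadjusted p under 0.05 they numbered 0, 0 and 1, where 9.85%, 2.57% and 14.1% of all genes reached it. MYC, which promotes entry into the cycle, was that one. It read 1498, 1416 and 1872 in control cells, 1036, 931 and 1540 in HSF-6(8) B+DZNep, and 1149, 858 and 659.9 in HSF-6(S9) B+DZNep. HSF-6(S9) was below the controls without overlap (-0.86 ± 0.26, limma adjusted p = 0.163), and the HSF-6(8) groups overlapped.

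Of 8 inhibitors of cyclin-dependent kinases 6 were tested and none was called by limma. An unadjusted p under 0.05 was reached by 0, 0 and 1, against 9.85%, 2.57% and 14.1% of all genes. CDKN1C, which encodes p57, read 1002, 1226 and 916 in control cells, 2287, 1922 and 670.4 in HSF-6(8) B+DZNep, and 2228, 2299 and 2207 in HSF-6(S9) B+DZNep. All treated arrays were above all controls except the third HSF-6(8) B+DZNep array, which was the lowest of the 9. Its value in the third comparison was 1.10 ± 0.39 (limma adjusted p = 0.231). CDKN2A, which encodes p16, read 143, 123 and 149.6, then 145, 111 and 159, then 149, 21.3 and 74.0. The second and the third HSF-6(S9) array were the lowest for CDKN2A and the first lay among the controls (-0.91 ± 0.44 in the third comparison, limma adjusted p = 0.394). CDKN1A, which encodes p21 and is a known target of histone deacetylase inhibitors, was at 0.04 ± 0.21 in the first comparison.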

How the data were processed

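The deposited values are signal intensities per probe set on a linear scale, made by the authors with Affymetrix Expression Console and MAS5, per the submitters' processing notes. In the sources used here no version is given. MAS5 scales each array, and the mean without the top and bottom 2% was 500.061 to 500.076 on every array, so a shift shared by all genes is removed. Of 54675 probe sets, 41091 mapped to a single gene in the platform annotation.

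For the tests 16 was added before log2, which understates fold changes of dim genes. Probe sets above the array's own median on at least 3 of 9 arrays were kept (29325), and of a gene's kept probe sets the brightest on average was used. A model with a mean per group was fitted to all 9 arrays with limma 3.58.1 in R 4.3.3 (lmFit, eBayes without trend). Two-sided p-values were adjusted (Benjamini-Hochberg) across 13518 genes or all kept probe sets, and the steps were tested on simulated data. Medians over members are descriptions with no test.

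Members, gene lists (12 roles, 2 lists of further replication and mitosis genes, regulators, CDK inhibitors, and pluripotent, stromal, endoderm, neuroectoderm and trophoblast markers) and comparisons were chosen with earlier results of these data known, and the promoter words after the data were seen. Signals on every array are given for members among the 2 largest rises or falls of a comparison in either class, or whose groups did not overlap. Other lists are given by counts, with values for some of the 2 highest and 2 lowest of a comparison (PRIM2, TRIP13, MYC, CDKN1A, CDKN1C and CDKN2A). GINS3, GINS4, BUB3, PAX3 and GATA3 were named after their values were seen. Neuroectoderm markers with a probe set of their own (10 of 11) summed to 17574 to 28115 over the arrays. Trophoblast markers with one (9 of 10) summed to 4133 to 6133.

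The prime marks were checked as a pairing: deviations of same-marked arrays correlated at 0.21, 0.26 and 0.49 in the first comparison and 0.18, 0.20 and 0.25 in the second, all above 0.1, but at -0.03, 0.08 and 0.34 in the third. Differently marked arrays reached 0.32 and 0.26 in the first, so there only the third arrays stood apart by mark. The labels do not explain the marks, and the block changed no member's call. Alternatives covered the added constant, filter, probe set choice, scaling, blocks, eBayes settings, the arrays in the fit and each array left out.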

Additional observations from a re-analysis of the deposited data

How the results depend on the processing

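No member was called under any of 22 alternatives in any of the 3 comparisons, so no call was gained or lost, and 193 of 2769 uncalled member values had the other sign. With each array centred on its median, the mitosis median became -0.15 in the first comparison and 0.0244 in the second, and the median of all genes -0.09 and 0.08. With the third HSF-6(8) B+DZNep and second HSF-6(S9) arrays left out together, chosen after seeing the data, it was -0.15 and 0.0152. With only the first and second arrays, also chosen after seeing the data, it was -0.11 in the third comparison. The cause of these shifts was not tested. Leaving out each array in turn gave replication medians of -0.14 to 0.0159, -0.11 to 0.03 and -0.16 to -0.06 and mitosis medians of -0.15 to -0.000430, -0.0813 to -0.000481 and -0.24 to -0.13 in the 3 comparisons. In the first comparison the upper ends came without the second HSF-6(8) B+DZNep array and the lower ends without the third. With the replicate block no member was called (lowest adjusted p 0.218 for KIF20A, 0.881 for CDC6 and 0.159 for POLA1), while calls among all genes went from 114 to 162, stayed at 1 and went from 160 to 255. Calls among all genes were 56 to 191, 0 to 1 and 55 to 298 over the alternatives in the 3 comparisons, lowest without the second HSF-6(8) B+DZNep array in the first and without the second control array in the third. A filter at the 75th percentile left 41 members, without CCNE2. Background signal limits the dim members and probe sets.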
